A study of Mus musculus with 12 samples.

Results

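Of the 54838 genes in the liver count table, 10 genes are described here that are not part of the familiar response to zinc, namely *Dsg1c*, *Slc43a1*, *Tubb2a*, *Erbb4*, *Sh2d4a*, *Banp*, *Tnfrsf19*, *Adamts2*, *Aqp8* and *Synj2*. They were picked by symbol because their counts in these same livers moved with zinc, in mice injected with PBS or in mice injected with dexamethasone (Dex), a synthetic steroid that activates the glucocorticoid receptor. Their zinc effects are therefore given as a description without a test. Total RNA was sequenced from the livers of 12 adult female C57BL/6J mice, which for 7 days had either plain drinking water or a 25 mM solution of ZnSO4. A single injection of 200 µg Dex or of PBS alone followed, and every liver was taken 2 h later. The 4 groups of 3 mice are called water-PBS (the control), water-Dex, zinc-PBS and zinc-Dex, and the submitters call the 3 mice of a group biological replicates. No group is labelled as carrying a mutation or as adrenalectomized, and each library holds all cell types of the liver. The study asked how zinc protects mice against lethal shock induced by tumor necrosis factor. One of its questions, addressed there in the ileum, was whether zinc acts on the transcription that the glucocorticoid receptor drives.

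Total counts lay between 9091152 and 12303527 per library. The zinc exposure was visible in the metallothionein gene *Mt1*, which counted 209 to 435 in water-PBS against 3427 to 6212 in zinc-PBS livers, and 7486 to 7595 against 12367 to 15077 with Dex. Of the zinc-PBS livers, replicate 1 stood apart in inflammatory genes, with 3021 normalized counts of *Cxcl1*, against 50.7 and 163 in the other two. Among the control livers, water-PBS replicate 1 stood apart in the early growth response gene *Egr1*, with 3379 normalized counts against 551 and 302. Hepatocyte markers (all 6 of 6 detected) summed to 1197810 to 1722690 normalized counts in every library, and the pancreatic markers *Prss2*, *Cpa1*, *Pnlip*, *Ctrb1* and *Amy2a5* had at most 3 counts in each.

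Zinc entering the liver is sensed by the transcription factor MTF1, which binds metal response elements and switches on metallothioneins and zinc exporters. The 10 genes are not among the familiar members of that circuit and serve different functions in the cell. *Dsg1c* encodes a desmoglein, one of the cadherins that hold epithelial cells together at desmosomes, and *Slc43a1* encodes LAT3, a transporter of large neutral amino acids. *Tubb2a* encodes a beta tubulin, a building block of microtubules. *Erbb4* encodes a receptor tyrosine kinase for neuregulins, *Sh2d4a* an adaptor protein with an SH2 domain, and *Banp* a nuclear DNA-binding protein with a BEN domain. *Tnfrsf19*, also called *Troy*, encodes a member of the tumor necrosis factor receptor superfamily, and *Adamts2* a zinc-dependent protease that trims the amino end of fibrillar procollagens. *Aqp8* encodes a water channel of hepatocytes, and *Synj2* encodes synaptojanin 2, a phosphatase of phosphoinositides. Levels are given as normalized read counts, which are counts divided by a size factor for each library. The lowest raw count of any of the 10 genes in any library was 20.

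**Figure D1:**
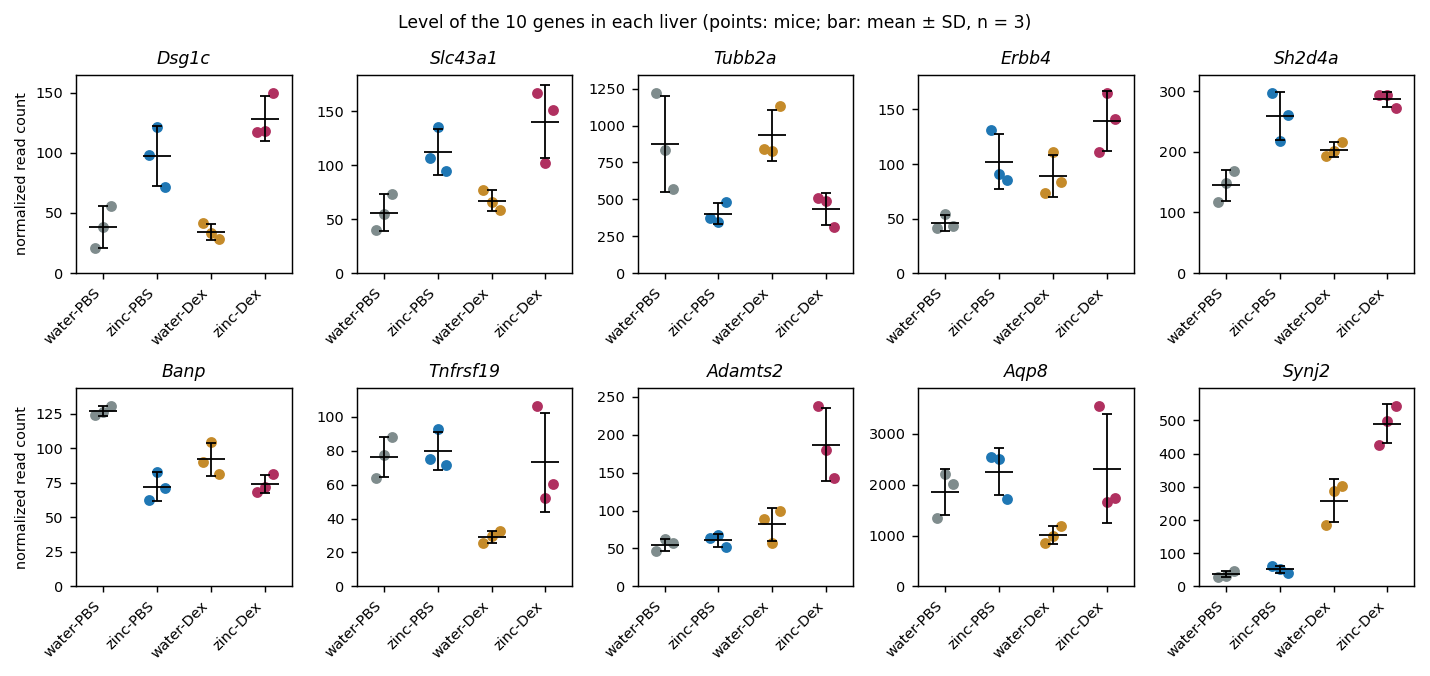
Normalized read count (y axis, linear, from 0) of each of the 10 genes in the 4 groups (x axis); points are single mice, and the bar with whiskers is the mean ± SD of 3 mice. *Dsg1c* and *Slc43a1* lie higher and *Tubb2a* lower in both zinc groups, *Tnfrsf19* is lowest in water-Dex, and *Synj2* lies between 184 and 544 in the 6 Dex livers against 29.4 to 62.3 in the 6 PBS livers.

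*Dsg1c*, *Slc43a1* and *Tubb2a* differed between zinc and plain water by over 0.8 log2 units whether or not Dex had been injected. For the cadherin gene *Dsg1c* (ENSMUSG00000034774, chromosome 18, 20247340 to 20285031), the count was 21, 38.2 and 56.0 in water-PBS and 98.4, 122 and 71.5 in zinc-PBS livers. After Dex, the mice on plain water had 41.6, 33.0 and 28.7 and those on zinc 117, 118 and 149.9. All 6 zinc livers exceeded all 6 livers on plain water, whose highest value was 56.0. The means were 38.4 ± 17.5 (SD, n = 3) and 97.1 ± 25.0 with PBS, and 34.4 ± 6.59 and 128 ± 18.7 with Dex. On the log2 scale the zinc effect was 1.34 (SE 0.293) in PBS and 1.90 (SE 0.296) in Dex livers, the largest of the 10 in each. The groups thus ordered as a low pair on plain water and a high pair on zinc, with overlapping ranges within each pair.

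The amino acid transporter gene *Slc43a1* (ENSMUSG00000027075, chromosome 2, 84838850 to 84863594) counted 39.9, 54.6 and 73.6 in water-PBS and 107, 135 and 94.2 in zinc-PBS. With Dex it counted 77.2, 65.9 and 58.4 on plain water and 167, 102 and 151 on zinc. Here too the highest liver on plain water, at 77.2, stayed under the lowest zinc liver, at 94.2. The mean went from 56.0 ± 16.9 to 112 ± 21.2 in PBS livers and from 67.2 ± 9.45 to 140.1 ± 33.9 in Dex livers (n = 3 each), which is a log2 difference of 1.0 (SE 0.251) and 1.06 (SE 0.247). Without water-PBS replicate 1, the lowest mouse, the zinc effect in PBS livers was 0.81.

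*Tubb2a* (ENSMUSG00000058672, chromosome 13, 34074274 to 34078007) went the other way. Its counts were 1223, 832 and 572 in water-PBS and 376, 348 and 483 in zinc-PBS livers. In the Dex-injected mice they were 843, 829.6 and 1135 without and 506, 489 and 312 with zinc. Every zinc liver was below every liver on plain water, although the step between the closest values, 506 and 572, was narrow beside the spread of the water-PBS mice. The means of 876 ± 328 and 403 ± 71.5, and of 936 ± 173 and 436 ± 107 with Dex (n = 3), correspond to log2 differences of -1.12 (SE 0.244) and -1.10 (SE 0.244). Without water-PBS replicate 1, the highest mouse, the zinc effect in PBS livers was -0.80.

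*Erbb4*, *Sh2d4a* and *Banp* had the larger zinc effect in PBS livers, and for all 3 the water-Dex mean lay between the means of water-PBS and zinc-PBS. The neuregulin receptor gene *Erbb4* (ENSMUSG00000062209, chromosome 1, 68032186 to 69108059) counted 41.0, 54.6 and 42.8 in water-PBS and 131, 90.9 and 85.1 in zinc-PBS livers. The water-Dex livers held 73.1, 111 and 83.1 and the zinc-Dex livers 111, 166 and 141. The control mice were lowest, with no overlap with any other group, while neighbouring groups among the other three overlapped or, for water-Dex and zinc-Dex, met end to end at 110.6 and 110.8. Means were 46.1 ± 7.40, 102 ± 24.9, 88.9 ± 19.4 and 139 ± 27.4 (SD, n = 3), from the control through zinc-PBS and water-Dex to zinc-Dex. The zinc effect was 1.14 (SE 0.248) log2 units in PBS and 0.65 (SE 0.232) in Dex livers. The liver with the high *Cxcl1* also had the highest *Erbb4* of its group, and without it the effect in PBS livers was 0.93.

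In water-PBS the adaptor gene *Sh2d4a* (ENSMUSG00000053886, chromosome 8, 68276567 to 68347699) counted 118, 148 and 168, and in zinc-PBS 298, 219 and 261. In water-Dex it counted 194, 201 and 217, and in zinc-Dex 293, 294 and 273. Each step from water-PBS to water-Dex to zinc-PBS was free of overlap, but the last was only from 217 to 219, and the zinc groups overlapped. Mean counts were 145 ± 25.4, 259 ± 39.7, 204 ± 11.6 and 287 ± 12.0 in the same order as above, and the zinc effect was 0.84 (SE 0.154) log2 units with PBS and 0.49 (SE 0.150) with Dex.

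*Banp* (ENSMUSG00000025316, chromosome 8, 121949750 to 122029258) was highest in the control livers, at 124, 126 and 131. On zinc it counted 62.3, 83.0 and 71.5 with PBS and 68.4, 72.2 and 81.7 with Dex, and the water-Dex livers held 90.4, 104 and 81.1. No liver given zinc, Dex or both reached the lowest control, the highest of them being 104, and the Dex groups touched at 81.7 and 81.1. The means were 127 ± 3.42, 72.3 ± 10.4, 91.9 ± 11.6 and 74.1 ± 6.84. The zinc effect was -0.81 (SE 0.179) log2 units in PBS and -0.31 (SE 0.188) in Dex livers. *Sh2d4a* and *Banp* are the members closest to the fold change limit of 0.8 log2 units in the comparison that chose them, and single mice carried some genes across it. The effect in PBS livers was 0.71 for *Sh2d4a* without water-PBS replicate 1 and -0.72 for *Banp* without zinc-PBS replicate 1, and that of *Erbb4* in Dex livers was 0.83 without water-Dex replicate 2.

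**Figure D2:**
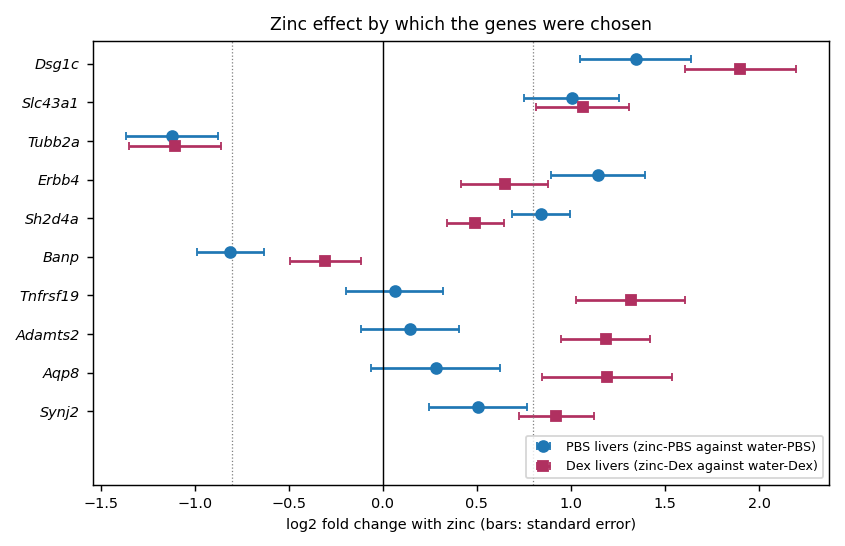
Log2 fold change with zinc (x axis) of each of the 10 genes (y axis) in PBS livers (circles) and in Dex livers (squares), with bars for the standard error from 1 DESeq2 fit of 12 libraries; dotted lines mark 0.8 in each direction. *Dsg1c*, *Slc43a1* and *Tubb2a* have both symbols beyond the dotted lines, *Erbb4*, *Sh2d4a* and *Banp* the circle only, and *Tnfrsf19*, *Adamts2*, *Aqp8* and *Synj2* the square only, although leaving out 1 mouse takes the outer symbol of *Sh2d4a*, *Banp*, *Aqp8* or *Synj2* inside the lines and the square of *Erbb4* outside.

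*Tnfrsf19*, *Adamts2*, *Aqp8* and *Synj2* had a zinc effect of under 0.8 log2 units in PBS livers and a larger one in Dex livers. For the receptor gene *Tnfrsf19* (ENSMUSG00000060548, chromosome 14, 60963875 to 61046490), PBS livers held 64.1, 77.4 and 87.9 on plain water and 74.9, 92.7 and 71.5 on zinc. Dex livers held 25.4, 29.8 and 32.7 on plain water and 106, 52.2 and 60.6 on zinc. The water-Dex group was the odd one out, with all 3 mice below every other liver, and the zinc-Dex range overlapped both PBS groups. With means of 76.4 ± 11.9, 79.7 ± 11.4, 29.3 ± 3.66 and 73.1 ± 29.2 (SD, n = 3), the zinc effect was 0.06 (SE 0.259) log2 units in PBS and 1.32 (SE 0.291) in Dex livers. The first zinc-Dex mouse was the highest, and without it the effect in Dex livers was 0.95.

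*Aqp8* (ENSMUSG00000030762, chromosome 7, 123462291 to 123468004), the water channel gene, had the same arrangement. Its counts were 1354, 2210 and 2006 in water-PBS and 2544, 2499 and 1719 in zinc-PBS. Dex livers had 853, 987 and 1198 on plain water against 3552, 1654 and 1733 on zinc. Again all 3 water-Dex mice were below every other liver, and the other groups overlapped. The mean was 1857 ± 447, 2254 ± 464, 1013 ± 174 and 2313 ± 1074, with a zinc effect of 0.28 (SE 0.345) and 1.19 (SE 0.346) log2 units. Without zinc-Dex replicate 1, the highest mouse, the latter was 0.74. Per kilobase of exon *Aqp8* was the most abundant of the 10, with group means of 641 to 1463 normalized counts, followed by *Tubb2a* with 250.1 to 581. The least abundant was *Erbb4* in water-PBS (3.73), *Synj2* in zinc-PBS (6.18), *Tnfrsf19* in water-Dex (6.18) and *Banp* in zinc-Dex (11.2). Group means of *Erbb4* ran from 3.73 to 11.3.

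The procollagen protease gene *Adamts2* (ENSMUSG00000036545, chromosome 11, 50602084 to 50807573) counted 46.2, 61.9 and 57.1 in water-PBS and 63.2, 68.2 and 51.6 in zinc-PBS. Livers given Dex counted 89.3, 57.4 and 98.9 on plain water and 238, 179.9 and 142 on zinc. The 3 mice given both agents were above all others, whereas the other 3 groups overlapped from one to the next. The means of 55.1 ± 8.04, 61.0 ± 8.51, 81.9 ± 21.7 and 187 ± 48.2 gave a zinc effect of 0.15 (SE 0.259) log2 units with PBS and 1.18 (SE 0.238) with Dex.

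*Synj2* (ENSMUSG00000023805, chromosome 17, 5941280 to 6044290) had the widest range, as a ratio of its highest to its lowest value. In PBS livers the phosphatase gene counted 29.4, 32.8 and 47.2 on plain water and 62.3, 51.6 and 40.7 on zinc. In Dex livers it counted 184, 288 and 304 on plain water and 427, 499 and 544 on zinc. The PBS groups overlapped, the water-Dex mice were all above them, and the zinc-Dex mice were all above the water-Dex mice. Mean counts were 36.5 ± 9.47, 51.5 ± 10.8, 259 ± 65.3 and 489.9 ± 59.1, and the zinc effect was 0.51 (SE 0.260) log2 units with PBS and 0.92 (SE 0.201) with Dex. The latter was 0.73, under the limit of 0.8, without water-Dex replicate 1.

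Counted over the 10 genes, zinc mice and water mice did not overlap for 6 genes in PBS livers (4 higher and 2 lower) and for 9 in Dex livers (8 higher and 1 lower). Of all genes tested, 5.86% lay higher and 6.01% lower without overlap in PBS livers and 10.2% higher and 9.8% lower in Dex livers, and 0.138% and 0.469% were called (DESeq2 adjusted p under 0.05 and over 0.8 log2 units). As the members were chosen by these comparisons, nothing follows from their counts. The median zinc effect was 0.39 log2 units in PBS and 0.99 in Dex livers, beside 0.00 for all genes tested in each. The difference between the zinc effects (Dex minus PBS) was largest for *Tnfrsf19*, at 1.26 (SE 0.390) log2 units, *Adamts2*, at 1.04 (SE 0.352), and *Aqp8*, at 0.91 (SE 0.489). All 3 were smaller without zinc-Dex replicate 1, at 0.88, 0.82 and 0.46. *Erbb4* and *Sh2d4a* were the members with a negative value, -0.49 (-0.28 without zinc-PBS replicate 1) and -0.35 (-0.22 without water-PBS replicate 1). In whole liver, fewer cells of a type and less RNA per cell cannot be told apart, which holds for every level given here.

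Promoter sequence was looked at because metal response elements are the known DNA targets of the zinc sensor. The window ran from 250 bases before to 50 bases after the RefSeq start site (GRCm38.p6), and 9 such promoters were found for 7 of the 10 genes. The 7-base core TGCACNC or TGCGCNC, on either strand, was present in 25.7% of all 32851 promoters and in 5 of these 9, which belong to *Adamts2*, *Aqp8*, *Tubb2a* and *Synj2*, the last with 2 overlapping promoters that hold the same core. The core of *Tubb2a* lay inside the transcript, 9 bases after the start. To show the cores that lie before the start, those 250 bases are printed for the other three, read 5′ to 3′ on the plus strand with the core in capitals. The *Adamts2* promoter lies at chr11:50601835-50602084, the *Aqp8* promoter at chr7:123462044-123462293 and the *Synj2* promoter, at a start site within the span of the gene, at chr17:5975330-5975579.
Adamts2: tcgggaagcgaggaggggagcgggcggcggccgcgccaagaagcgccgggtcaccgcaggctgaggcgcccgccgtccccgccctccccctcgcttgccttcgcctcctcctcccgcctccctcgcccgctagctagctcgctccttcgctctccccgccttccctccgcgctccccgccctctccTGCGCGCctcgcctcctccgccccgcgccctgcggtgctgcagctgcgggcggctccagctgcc
Aqp8: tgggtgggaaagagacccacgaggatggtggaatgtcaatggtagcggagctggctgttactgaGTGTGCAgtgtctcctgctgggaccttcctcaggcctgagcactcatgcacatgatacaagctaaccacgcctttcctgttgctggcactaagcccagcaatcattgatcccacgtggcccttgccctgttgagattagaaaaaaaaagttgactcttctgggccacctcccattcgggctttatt
Synj2: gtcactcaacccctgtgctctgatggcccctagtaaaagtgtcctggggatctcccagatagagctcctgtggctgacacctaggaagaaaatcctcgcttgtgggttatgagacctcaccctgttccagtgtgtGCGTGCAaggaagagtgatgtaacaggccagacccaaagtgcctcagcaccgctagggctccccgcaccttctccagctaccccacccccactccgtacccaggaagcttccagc
The core is on the plus strand in *Adamts2*, starting 64 bases before the start site, and on the minus strand in *Aqp8* and *Synj2*, at 186 and 115 bases before it. *Slc43a1*, *Erbb4* and *Tnfrsf19* held no such core in this window. For comparison, the window held 3 cores in *Mt1*, of which 2 lay after the start, 4 in *Mt2* (1 after the start) and 2 in the zinc exporter gene *Slc30a1* (1 after the start). The full palindromic glucocorticoid response element was in 0.00913% of all promoters and its inner part ACANNNTGT in 6.85%, both strands searched. Neither was in any of the 9 promoters of the members, and the inner part was in that of *Mt1*, 92 bases before the start. A match of letters is no measured site, and its absence says only that these letters are not in this window.

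The effect of Dex averaged over plain and zinc water was tested, since it is uncorrelated with both zinc comparisons if the 4 groups vary equally. It is the mean of water-Dex and zinc-Dex minus the mean of water-PBS and zinc-PBS. *Synj2*, *Erbb4* and *Tnfrsf19* had however been noted for Dex in earlier results of these data, so for them the test is not independent of the choice. The same holds for *Adamts2* and again for *Synj2*, whose zinc effect passed 0.8 log2 units only in Dex livers, where their counts were highest. *Synj2* rose by 3.04 (SE 0.164) log2 units (DESeq2 adjusted p 2.4e-74) and *Adamts2* rose by 1.09 (SE 0.176, DESeq2 adjusted p 8.0e-09), and these 2 of 10 were called, both higher. Of all 17093 genes tested, 10.3% were called, 4.81% higher and 5.49% lower. A further 3 genes had an adjusted p under 0.05 with a change below 0.8 log2 units, a class that took in 28.8% of all genes when the called ones are included. *Erbb4* rose by 0.69 (SE 0.170, DESeq2 adjusted p 0.000332), *Sh2d4a* rose by 0.32 (SE 0.108, DESeq2 adjusted p 0.0128) and *Tnfrsf19* was lower, at -0.76 (SE 0.195, DESeq2 adjusted p 0.0007). Single mice decided on which side of a limit some of these fell, since without zinc-PBS replicate 1 *Erbb4* was called at 0.80, and *Tnfrsf19* was called at -0.81 without water-PBS replicate 1 and at -0.94 without zinc-Dex replicate 1. *Sh2d4a* was at 0.26 without water-PBS replicate 1, where its DESeq2 adjusted p was 0.0594. *Aqp8*, which did not pass with all 12 libraries, was at -0.64 with a DESeq2 adjusted p of 4.2e-05 without zinc-Dex replicate 1, a change still below the fold limit.

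With all 12 libraries, the other 5 genes did not pass the test of the averaged Dex effect. It was 0.29 (SE 0.176) for *Slc43a1*, 0.12 (SE 0.208) for *Dsg1c*, 0.10 (SE 0.172) for *Tubb2a*, -0.22 (SE 0.130) for *Banp* and -0.42 (SE 0.244) for *Aqp8*, with DESeq2 adjusted p between 0.208 and 0.727. The 95% interval of *Dsg1c* ran from -0.28 to 0.53 log2 units and that of *Tubb2a* from -0.23 to 0.44, so an averaged Dex effect beyond 0.8 log2 units lay outside both. This does not hold for each kind of water alone, as the interval of *Dsg1c* on zinc water ran from -0.13 to 0.93. The median of the 10 was 0.21 log2 units beside -0.02 for all genes tested. An exact two-sided permutation test that exchanged injections within each kind of water (400 arrangements) gave p = 0.005 for *Synj2*, the smallest it can give, 0.01 for *Erbb4* and *Adamts2*, 0.02 for *Sh2d4a* and 0.03 for *Tnfrsf19*, without adjustment. For *Synj2*, *Adamts2*, *Erbb4* and *Tnfrsf19* this test too is not independent of the choice, for the reasons given above, so it adds no separate evidence. Taken within each kind of water, the Dex effect was 2.83 log2 units on plain and 3.25 on zinc water for *Synj2*, 0.57 and 1.61 for *Adamts2*, and 0.94 and 0.44 for *Erbb4*. With Dex on plain water *Aqp8* and *Tnfrsf19* were -0.87 and -1.38 log2 units from the control, and with Dex on zinc water 0.04 and -0.13 from zinc-PBS. The values on zinc water rested on 1 mouse, since without zinc-Dex replicate 1 they were -0.41 and -0.50. Each of these values shares a group with a zinc comparison and is not tested.

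Genes of the same families and partners of the members were not called with zinc. Of 94 such relatives, 69 were tested in each zinc comparison and 0 were called in PBS livers and 0 in Dex livers by DESeq2, or by edgeR. At an unadjusted p under 0.05 they were 9 and 11 of 69, beside 5.74% and 10.2% of all genes, and at an adjusted p under 0.05 with any fold 0 and 1, beside 0.341% and 1.35% of all genes. The background was 0.138% of all genes called in PBS and 0.469% in Dex livers. The difference between the zinc effects was called for 0 of 93 relatives by DESeq2, and for 0 by edgeR, with 1 at an unadjusted p under 0.05, beside 0.0191% called of all genes. The 9 tubulins tested beside *Tubb2a* had a median of -0.32 log2 units in PBS and -0.33 in Dex livers. *Tuba4a*, which encodes an alpha tubulin and is named after its values were seen, was lower with zinc in Dex livers. It went from 1340 ± 125 in water-Dex to 997 ± 62.5 normalized counts in zinc-Dex (log2 -0.43, SE 0.108, DESeq2 adjusted p 0.0107), a change below the fold limit. In PBS livers it was 1377 ± 179 on plain water and 1103 ± 14.0 on zinc (log2 -0.32, SE 0.107, DESeq2 adjusted p 0.288). Its level is uncertain, because it shares 1379 exon bases with *Stk16* on the opposite strand, whose mean lay between 540 and 583 normalized counts over the 4 groups. Of 4 aquaporins tested beside *Aqp8*, 3 had an unadjusted p under 0.05 for zinc in Dex livers (10.2% of all genes did) and none passed the adjustment. They were *Aqp9*, the glycerol channel of hepatocytes, at 0.28 (SE 0.0967), *Aqp11* at 0.38 (SE 0.195) and *Aqp4* at 0.87 (SE 0.425), also named after their values were seen.

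**Figure D3:**
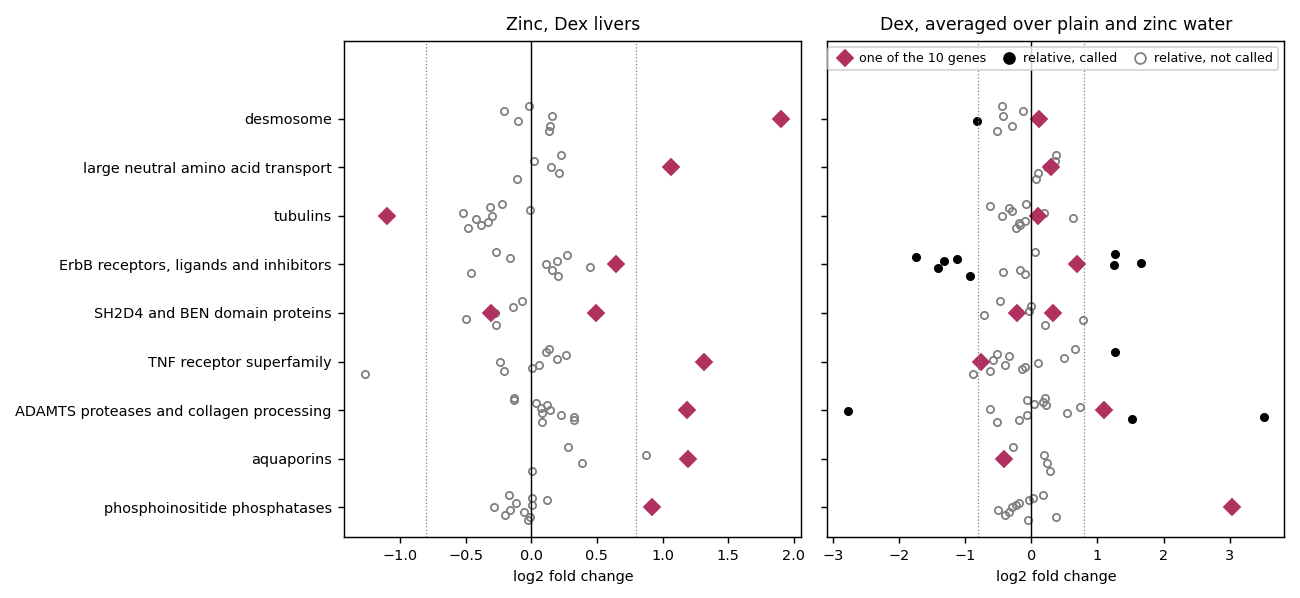
Log2 fold change (x axis) of the 10 genes (diamonds) and of their tested relatives (circles) in 9 families (y axis), for zinc in Dex livers on the left and for Dex averaged over plain and zinc water on the right; filled circles are called and dotted lines mark 0.8. On the left 0 of 69 relatives are called, and a circle beyond a dotted line lies there without passing the adjusted p; on the right 13 of 81 are called, 8 of them in the ErbB family.

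The averaged Dex effect was called in 13 of 81 relatives tested (16%), 6 higher and 7 lower, beside 10.3% of all genes. The ErbB family held 8 of the 13, with 8 of 12 tested (3 higher and 5 lower). *Errfi1*, which encodes an inhibitor of ErbB receptor kinases, rose from 8425 ± 3484 in water-PBS to 24304 ± 438 in water-Dex and from 7595 ± 3003 to 26321 ± 1064 on zinc (averaged log2 1.66, SE 0.239, DESeq2 adjusted p 6.4e-11). *Erbb3*, a neuregulin receptor gene related to *Erbb4*, fell from 2008 ± 414 to 647 ± 162 on plain water and from 2024 ± 311 to 884 ± 266 on zinc (averaged log2 -1.42, SE 0.160, DESeq2 adjusted p 3.2e-17). Per kilobase of exon, the mean level of *Erbb3* was 108 to 336 normalized counts over the groups, beside 3.73 to 11.3 for *Erbb4*. The other calls of this family, named after their values were seen, were *Nrg4* and *Ereg* higher and *Lrig1*, *Hbegf*, *Btc* and *Nrg1* lower. *Nrg4*, a neuregulin gene, rose by 1.27 and *Lrig1*, which encodes a negative regulator of ErbB receptors, was at -1.12. Each of these 2 shares exon bases with a gene on the opposite strand, so its level is uncertain, and the other four had means of at most 20.6 normalized counts over the 12 libraries.

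In the family of *Adamts2*, 3 of 14 tested relatives were called. The share to set beside this and the family counts below is 10.3% of all genes called. The protease gene *Adamts15* rose with Dex from 7.17 ± 4.49 to 101 ± 0.437 normalized counts on plain water and from 12.6 ± 5.53 to 119 ± 19.7 on zinc (averaged log2 3.51, SE 0.242, DESeq2 adjusted p 8.4e-46). *Adamts14*, which like *Adamts2* encodes a procollagen amino-end protease, was higher (1.52) and *Adamts4* lower (-2.77), both at means of at most 26.8 normalized counts over the 12 libraries and named after their values were seen. *Adamts4* had group means of at most 8.35, and its level is uncertain. Among TNF receptors, 1 of 12 was called: *Tnfrsf1b*, encoding TNF receptor 2, rose from 267 ± 16 to 636 ± 25.9 and from 282 ± 52.2 to 688 ± 21.4 (averaged log2 1.27, SE 0.0865, DESeq2 adjusted p 1.0e-46). Among desmosome genes 1 of 6 was called, the plaque gene *Dsp*, which fell from 711 ± 29.3 to 423 ± 9.74 and from 738 ± 39.2 to 396 ± 37.9 (averaged log2 -0.82, SE 0.0682, DESeq2 adjusted p 6.4e-32). The desmosome genes had a median of -0.43 log2 units, and 5 of the 6 had an adjusted p under 0.05 (28.8% of all genes did), whereas *Dsg1c* was at 0.12. No aquaporin, tubulin, large neutral amino acid transport gene, phosphoinositide phosphatase or SH2D4 or BEN domain gene was called, which made 0 of 37 by DESeq2 (14 at an adjusted p under 0.05, beside 28.8% of all genes, and 16 at an unadjusted p under 0.05) and 0 of 34 by edgeR.

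Reads from near-identical copies could blur some of these levels. Of the 50-base words in the exons of *Tubb2a*, 49.6% also occur in another gene, mostly *Tubb2b* and a *Tubb2a* pseudogene, and for *Dsg1c* the share was 29.6%, mostly with *Dsg1a* and *Dsg1b*. Reads that map to several places were left out by the authors, so reads lying wholly in such stretches do not enter the counts of either gene. The copies themselves were near the floor, with 0.961 to 10.5 normalized counts for *Tubb2b* and at most 2.62 for *Dsg1a* and 2.62 for *Dsg1b*. The shares were 3.02% for *Synj2*, 2.29% for *Banp* and 0.678% for *Adamts2*, and 0 for *Slc43a1*, *Erbb4*, *Sh2d4a*, *Tnfrsf19* and *Aqp8*. *Synj2* shares 297 exon bases with *Serac1* on the opposite strand, whose mean was 37.6, 34.2, 19.4 and 20.6 in the 4 groups (control, zinc, Dex, both) beside the rise of *Synj2* with Dex. *Banp* shares 252 bases with *Gm27011*, which had a mean of at most 1.91 in any group.

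The mice of a group also differed from each other, and some of the 10 genes varied together. The measure was Pearson's r of log2 values after removal of the group means, over the 12 libraries, and is given as a description because 3 mice share each group mean and which mice shared a cage was not given in the sources used here. The median over the 45 pairs of genes was 0.19, with 3 pairs above 0.7 and 2 below -0.7. *Dsg1c* and *Tubb2a* varied in opposite directions with r = -0.92 (-0.96 to -0.87 when each library was left out in turn). *Dsg1c* and *Slc43a1* varied together with r = 0.83 (0.74 to 0.95), and *Slc43a1* and *Tubb2a* in opposite directions with r = -0.74 (-0.96 to -0.60). The water-PBS mice show this well: replicate 1 had the lowest *Dsg1c* and *Slc43a1* and the highest *Tubb2a*, and replicate 3 the reverse. These 3 genes are also those with zinc effects of over 0.8 log2 units in both PBS and Dex livers.

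*Tnfrsf19* and *Aqp8*, which share the low water-Dex level, varied together with r = 0.90 (0.77 without zinc-Dex replicate 1, and up to 0.95). *Adamts2* and *Aqp8* had r = 0.70 (0.55 to 0.90). The mouse zinc-Dex replicate 1 was the highest of its group in *Tnfrsf19*, *Aqp8*, *Adamts2* and *Slc43a1*. *Sh2d4a* varied with the metallothionein gene *Mt1* (r = 0.93, 0.86 to 0.95) and *Banp* opposite to *Cxcl1* (r = -0.86, -0.94 to -0.77). *Banp* was lowest and *Sh2d4a* highest in zinc-PBS replicate 1, the liver with the high *Cxcl1*.

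**Figure D4:**
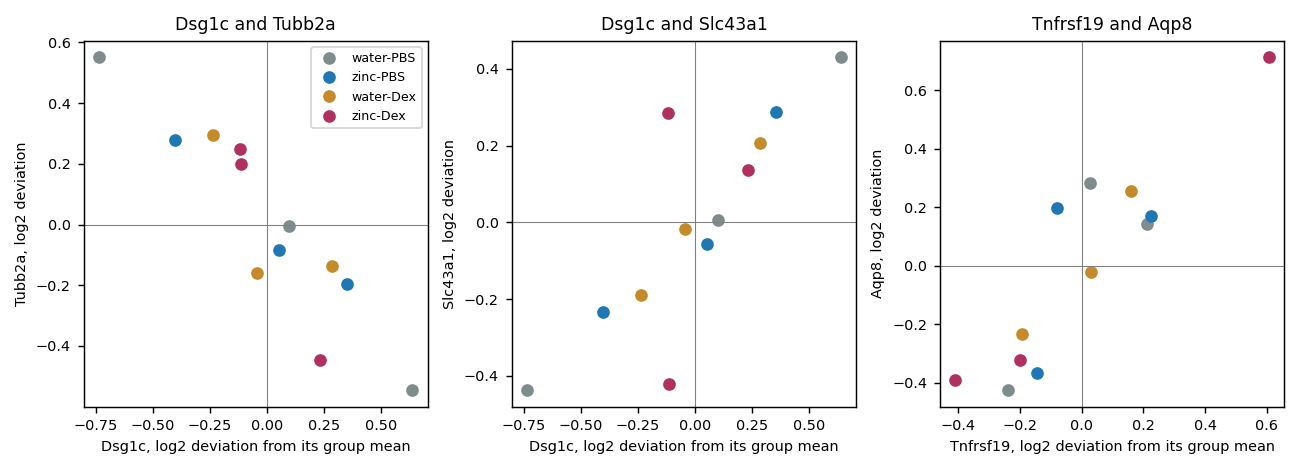
Deviation of each mouse from its group mean on the log2 scale for 3 pairs of genes (x and y axes), with 1 point per mouse coloured by group. *Dsg1c* and *Tubb2a* lie along a falling line (r = -0.92), *Dsg1c* and *Slc43a1* (r = 0.83) and *Tnfrsf19* and *Aqp8* (r = 0.90) along rising ones, the last with zinc-Dex replicate 1 at the far end.

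Among 6 genes of the circadian clock, *Tef*, *Dbp* and *Per3* varied within groups with the same mice as *Dsg1c*, *Slc43a1* and *Tubb2a*. With all 12 libraries *Arntl*, *Npas2* and *Nr1d1* had weaker correlations with these members, but leaving out single mice moved values on both sides of this division. The clock genes are given as a description. These clock genes were added after the likeness of clock genes to *Dsg1c* and *Slc43a1* was seen, and the hour at which each liver was taken was not given in the sources used here. The clock output gene *Tef* was 676 ± 168 in water-PBS and 1118 ± 45.3 in zinc-PBS, and 645 ± 27.2 and 1192 ± 270.0 with Dex, with zinc effects of 0.73 (SE 0.176) and 0.89 (SE 0.177) log2 units. *Arntl*, which encodes the clock activator BMAL1, was 242 ± 38.4, 128 ± 25.9, 247 ± 15.7 and 102 ± 51.1 in the same order, with zinc effects of -0.92 (SE 0.286) and -1.28 (SE 0.290). The zinc effects in PBS and Dex livers were 1.70 (SE 0.911) and 2.85 (SE 0.968) for *Dbp*, 1.41 (SE 0.457) and 1.73 (SE 0.507) for *Per3*, -1.60 (SE 0.50) and -1.80 (SE 0.512) for *Npas2* and 0.12 (SE 0.182) and 0.77 (SE 0.191) for *Nr1d1*. The averaged Dex effect was -3.03 (SE 0.665) for *Dbp*, -1.82 (SE 0.132) for *Nr1d1* and -1.55 (SE 0.342) for *Per3*, and -0.15 (SE 0.204), -0.05 (SE 0.358) and 0.01 (SE 0.125) for *Arntl*, *Npas2* and *Tef*, beside 0.12, 0.29 and 0.10 for *Dsg1c*, *Slc43a1* and *Tubb2a*. As the list was chosen after its values were seen, it was given no test. Within groups, *Slc43a1* varied with *Per3* (r = 0.83), *Tef* (0.78) and *Dbp* (0.73), *Tubb2a* opposite to *Dbp* (-0.79), *Tef* (-0.77) and *Per3* (-0.70), and *Dsg1c* with *Tef* (0.68, 0.39 to 0.80 with each library left out in turn), *Dbp* (0.61) and *Per3* (0.61). The 9 pairs of these members with *Arntl*, *Npas2* and *Nr1d1* had r between -0.49 and 0.51. Without zinc-PBS replicate 3, however, r of *Npas2* was -0.70 with *Dsg1c*, -0.76 with *Slc43a1* and 0.77 with *Tubb2a*. With each library left out in turn, r of *Arntl* and *Tubb2a* ran from 0.13 to 0.68 and that of *Nr1d1* and *Dsg1c* from -0.68 to -0.09. That of *Per3* and *Dsg1c* ran from 0.38 to 0.81, so the division between these clock genes is not firm. The part of the clock genes in the zinc levels of these 3 genes was not tested.

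Of 100 pairs of a member and the summed markers of a cell type, 11 had deviations with r above 0.7 or below -0.7. These r were not recomputed with each library left out, so how far they rest on single mice was not tested. The 8 stellate cell and fibroblast markers, all detected, summed to 5393 to 5537 in water-PBS, 5066 to 5186 in zinc-PBS, 5735 to 5945 in water-Dex and 5712 to 6796 in zinc-Dex livers. Most of that sum was *Dcn* and *Ecm1*, and the markers did not move together with Dex: on plain water *Dcn* went from 2299 ± 38.5 to 2506 ± 92.6 and *Ecm1* from 1480 ± 63.0 to 1764 ± 20.1, whereas *Pdgfrb* went from 120.3 ± 9.65 to 56.2 ± 1.07 and *Lrat* from 367 ± 7.94 to 224 ± 66.7. Deviations of the sum had r = 0.71 with those of *Adamts2*, 0.76 with *Aqp8* and 0.72 with *Tnfrsf19*. The sum of 6796 was that of zinc-Dex replicate 1, the mouse that was also highest of its group in these 3 genes. The 6 cholangiocyte markers, all detected, summed to 592 to 821 in water-Dex and 954 to 1174 in zinc-Dex, and to 733 to 842 and 661 to 1164 in water-PBS and zinc-PBS, and had r = 0.77 with *Adamts2*. Most of that sum was *Spp1*, and the sum of 1174 was again that of zinc-Dex replicate 1. From water-Dex to zinc-Dex the mean was higher for 5 of the 6, with 636 ± 100.5 and 928 ± 106 for *Spp1*, 25.3 ± 8.29 and 37.6 ± 12.7 for *Epcam*, 9.42 ± 4.84 and 12.7 ± 5.11 for *Krt7*, 5.08 ± 1.60 and 8.36 ± 1.58 for *Cftr* and 25.6 ± 7.54 and 27.5 ± 4.68 for *Sox9*, and it was 13.9 ± 3.81 and 13.3 ± 0.217 for *Krt19*. With Dex, *Spp1* was the one of them without overlap between zinc and water mice, and with PBS these were *Epcam* (28.4 to 34.0 against 35.3 to 52.4) and *Cftr* (0.910 to 3.29 against 3.61 to 5.24). The 5 neutrophil markers summed to 27.3 to 31.5 in water-PBS, 27.1 to 109 in zinc-PBS, 14.9 to 44.5 in water-Dex and 23.3 to 53.2 in zinc-Dex, with *Ngp* and *Mpo* at 3 counts or fewer in each library, and had r = -0.88 with *Banp*. The sum of 109 was that of zinc-PBS replicate 1, the liver with the high *Cxcl1* and the lowest *Banp* of its group. The other pairs were negative, with hepatocyte markers for *Dsg1c* (-0.71) and *Slc43a1* (-0.70), sinusoidal endothelial markers for *Tnfrsf19* (-0.75) and *Aqp8* (-0.73), Kupffer cell markers for *Synj2* (-0.75) and pancreatic markers for *Tnfrsf19* (-0.76), the last a sum that is nearly all *Cela1*. The 6 gut epithelium markers, of which *Cdx1* had at most 3 counts in each library, summed to 628 to 835 in water-PBS, 709 to 966 in zinc-PBS, 608 to 716 in water-Dex and 602 to 761 in zinc-Dex, mostly from *Fabp2*. With PBS, the mean was higher on zinc for 5 of the 6, among them *Vil1* (7.63 ± 2.06 in water-PBS against 20 ± 5.40 in zinc-PBS, with ranges that did not overlap), *Muc2* (2.37 ± 1.62 against 8.27 ± 5.87) and *Defa24* (13.5 ± 7.87 against 63.9 ± 58.9). *Fabp2* was lower, at 664 ± 81.2 against 636 ± 75.7. With Dex, the mean was higher on zinc for 2 of the 6, *Lgals4* (58.7 ± 20.9 against 80.05 ± 19.1) and *Muc2* (0.684 ± 0.594 against 1.70 ± 1.51). *Vil1* (5.75 ± 3.95 against 4.81 ± 1.76) and *Defa24* (10.7 ± 11.5 against 8.86 ± 9.50) were then lower on zinc. Of all 58 markers, zinc and water mice did not overlap for 6 in PBS livers (3 higher and 3 lower) and for 4 in Dex livers (3 higher and 1 lower). Of all genes tested, 5.86% lay higher and 6.01% lower without overlap in PBS livers, and 10.2% higher and 9.8% lower in Dex livers. No shift of a cell type is read from these marker counts. The part of these cell types in the levels of the 10 genes was not tested.

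Over the 12 libraries, the genes most like each member in Pearson's r of log2 values were looked up among 9564 genes averaging 50 normalized counts or more, as a description that includes the differences between groups. *Synj2* was followed most closely, by *Tmem87b*, *Atl2* and *2410131K14Rik* (r = 0.99 each). For *Adamts2* they were *Herpud2* (0.96), *Ccl9* (0.94) and *Manea* (0.93), for *Tnfrsf19* *Fam47e* (0.95), *Zbtb39* (0.94) and *Sephs2* (0.94), and for *Aqp8* the liver enzyme genes *Uox* (0.94), *Otc* (0.93) and *Galt* (0.93). *Dsg1c* was most like *Gsto1* (0.94), *Eif4a2* (0.94) and *Tef* (0.93), and *Slc43a1* like *Pdcd6* (0.93), *Tef* (0.93) and *Snx9* (0.91), so that *Tef* appears for both. *Erbb4* was most like *Phax* (0.93), *Gpcpd1* (0.92) and *Rpl31* (0.91), and *Tubb2a* like *Gclc* (0.90), *Ces2e* (0.89) and *Fyn* (0.89). *Sh2d4a*, with *Sorbs3* (0.90), *Slc35d1* (0.90) and *Kcnn2* (0.89), and *Banp*, with *Hexim1* (0.85), *Ppcs* (0.84) and *Ftcd* (0.83), had the least close followers.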

How the data were processed

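Per the labels, liver RNA of 12 mice was made into stranded TruSeq libraries and sequenced from a single end. The submitters' processing notes name Trimmomatic, HISAT2 2.0.4, SAMtools, featureCounts and DESeq2 with mm10, and per the study's methods the authors left out multimapping reads. The deposited values are the authors' raw read counts per Ensembl gene, with no normalization. Neither the annotation release nor the strand option of featureCounts is given in the sources used here, so levels of genes that overlap an opposite-strand gene are uncertain. Symbols and coordinates came from the GENCODE M21 annotation of GRCm38, promoters from RefSeq (GRCm38.p6).

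The 12 libraries were fitted at once with DESeq2 1.42.0 in R 4.3.3, with 1 coefficient per group, as the study's methods name DESeq2 with an FDR of 5%. Unshrunken Wald tests, size factors, Benjamini-Hochberg adjustment over all genes tested and the default filters were used, and genes were called at an adjusted p under 0.05 and over 0.8 log2 units. SE is the standard error from this fit. The design was first tested on simulated data. Total counts of 9091152 to 12303527 gave the members at least 20 counts in each library, well above the floor of 3. Variation between mice of a group was 6.20 to 20.7 times that of counting alone (chi-square per degree of freedom), so every library was kept as its own sample. With 3 mice against 3, an exact permutation test cannot go below 0.1.

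The 10 members and all lists were chosen with earlier results of these data known. The text names all members, near copies of members, of the relatives the genes called with zinc and the 2 largest Dex calls of each family that average 50 normalized counts or more, and for each member the 3 genes of highest r. Others are marked. Log2 values for r used a pseudocount of 1. Alternatives were edgeR 4.0.16 (quasi-likelihood test, TMM), TMM factors, a filter of at least 10 counts in 3 libraries, a replicate term, leaving out each library, the 6 libraries compared, no Cook's distance filter and no fold limit. The clock genes, leaving out libraries from r, the alternatives for the interaction and leaving out libraries from the members' Dex effect within each kind of water were added after seeing the data.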

Additional observations from a re-analysis of the deposited data

How the results depend on the processing

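Of the 10 genes, 2 were called for the averaged Dex effect, with 2 to 3 when each library was left out in turn, 2 under each other alternative with a fold limit and 5 with no fold limit. Relatives called were 0 for zinc in PBS livers under every alternative, and 0 for zinc in Dex livers, or 1 with no fold limit. For Dex they were 13, from 11 to 14 with libraries left out, 11 by edgeR and with the count filter, and 37 with no fold limit. No relative was called for the interaction under any alternative run. Over all genes, zinc calls were 17 in PBS and 60 in Dex livers by DESeq2, and 9 and 21 by edgeR. No sign was seen that replicate numbers pair the mice, since 1 of 18 same-numbered pairs had a correlation of deviations over 0.1 (range -0.20 to 0.19) and 3 of 12 libraries matched their own number best. Such correlations cannot exclude a pairing. With the replicate block, 2 members were called for Dex, and 0, 0, 11 and 0 relatives for zinc in PBS livers, zinc in Dex livers, Dex and the interaction.

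*Erbb4* crossed the fold limit for Dex without zinc-PBS replicate 1 (0.80) and *Tnfrsf19* without water-PBS replicate 1 (-0.81) or zinc-Dex replicate 1 (-0.94). The DESeq2 or edgeR adjusted p of *Sh2d4a* reached 0.0594 over its alternatives. *Aqp8* had a DESeq2 adjusted p of 4.2e-05 without zinc-Dex replicate 1 and of 0.0855 to 0.391 under its other DESeq2 or edgeR alternatives. Without single libraries, the zinc effect of *Dsg1c* in PBS livers ran from 1.06 to 1.70, that of *Aqp8* in Dex livers from 0.74 to 1.38 and that of *Tnfrsf19* from 0.95 to 1.5. At this depth, 69 of the 94 relatives had enough counts for a zinc test.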
